A study of Homo sapiens with 6 samples.

Results

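Neural crest transcription factors and the cofactors of HOX proteins were followed as a set of 31 genes, chosen by symbol, among the 19923 protein-coding genes of the count tables. All 31 symbols were found. The set holds SOX, TFAP2, PAX, FOXD, MSX, LMO, MEIS and PBX genes and ETS1. The RNA-seq libraries were made from poly(A)-selected RNA of Kelly cells, an established MYCN-amplified human neuroblastoma line whose genotype the labels give as WT. Cells were transfected for 72 hours by lipofection, with siRNA against METTL3 (siMETTL3, 3 libraries) or a control siRNA (siControl, 3 libraries), so both groups share the line and the transfection. The file headers name the counted alignments as input, and whether the libraries served as the input of a further assay is not given in the sources used here. METTL3 is the enzyme that places N6-methyladenosine (m6A) on mRNA. The comparison asks how these regulators change when METTL3 is depleted. The labels name no separate cultures, so p-values measure only the spread between these libraries, which may be technical.

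The neural crest is a transient embryonic population that gives rise to the sympathetic nervous system, peripheral glia, melanocytes and much of the facial skeleton. TFAP2, PAX3/PAX7, MSX and FOXD3 proteins act at the neural plate border and in early crest, SOXE proteins (SOX8, SOX9, SOX10) maintain crest cells and direct glial, pigment and cartilage fates, and SOXC proteins (SOX4, SOX11, SOX12) act in committed neuronal precursors. MEIS and PBX proteins are TALE homeodomain factors that bind DNA together with HOX proteins. LMO proteins hold LIM domains that bind partner proteins instead of DNA, and LMO1 is a known neuroblastoma susceptibility gene.

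Libraries held between 15430000 counts (siControl replicate 3) and 21565013 counts (siMETTL3 replicate 2). METTL3, the targeted gene, fell from 54.2 ± 1.80 to 33.04 ± 1.27 CPM (normalised read counts, mean ± SD, n = 3). Its log2 fold change was -0.71 with a standard error (SE) of 0.070 (edgeR FDR 4.68e-06). The counted span of METTL3 includes introns and overlaps another counted gene, so its counts may not come from METTL3 mRNA alone. The markers of noradrenergic neuroblastoma were present: all 12 listed genes were tested, and together they held 4638 to 5047 CPM in siControl and 6126 to 6536 CPM in siMETTL3. Of these, 7 were called higher, TH and GATA2 among them (log2 fold changes 1.52 and 0.75), and 3 lower, ISL1 and STMN2 among them (-1.18 and -0.50). The shares over all tested genes were 18.6% higher and 19.2% lower. siControl replicate 3 was the shallowest library and differed most from the others of its group. Its chi-square per degree of freedom against siControl replicate 1 was 16.1, and the chi-square between siMETTL3 libraries was 3.05 to 3.75.

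Of the 31 genes, 23 passed the filter on low counts (edgeR's filterByExpr) and were tested, and 22 of these were above the filter's level in all 6 libraries. The exception, FOXD3, was below it in at least 1 library of each group. At a false discovery rate (FDR, adjusted over all 15311 tested genes) under 0.05, 4 genes were higher and 7 were lower in siMETTL3, and the other 12 did not pass. The background was 37.8% of all tested genes called, 18.6% higher and 19.2% lower, against 47.8% of the tested set called, 17.4% higher and 30.4% lower. The median log2 fold change was -0.061 over the 23 tested genes and -0.0021 over all tested genes. In 15 of the 23 the values of the groups did not overlap, against a background of 49.9% of all tested genes. The falls were among abundant regulators. The rises, PBX2 apart, were among genes with a siControl mean under 10 CPM, the highest being ETS1 at 9.74. The number of higher genes dropped to 2 when siMETTL3 replicate 1 or siMETTL3 replicate 2 was left out. It was 7 with an offset for intron length, an alternative described with the SOXC genes. In a bulk sample, fewer cells expressing a gene and less RNA per cell cannot be told apart.

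**Figure D1:**
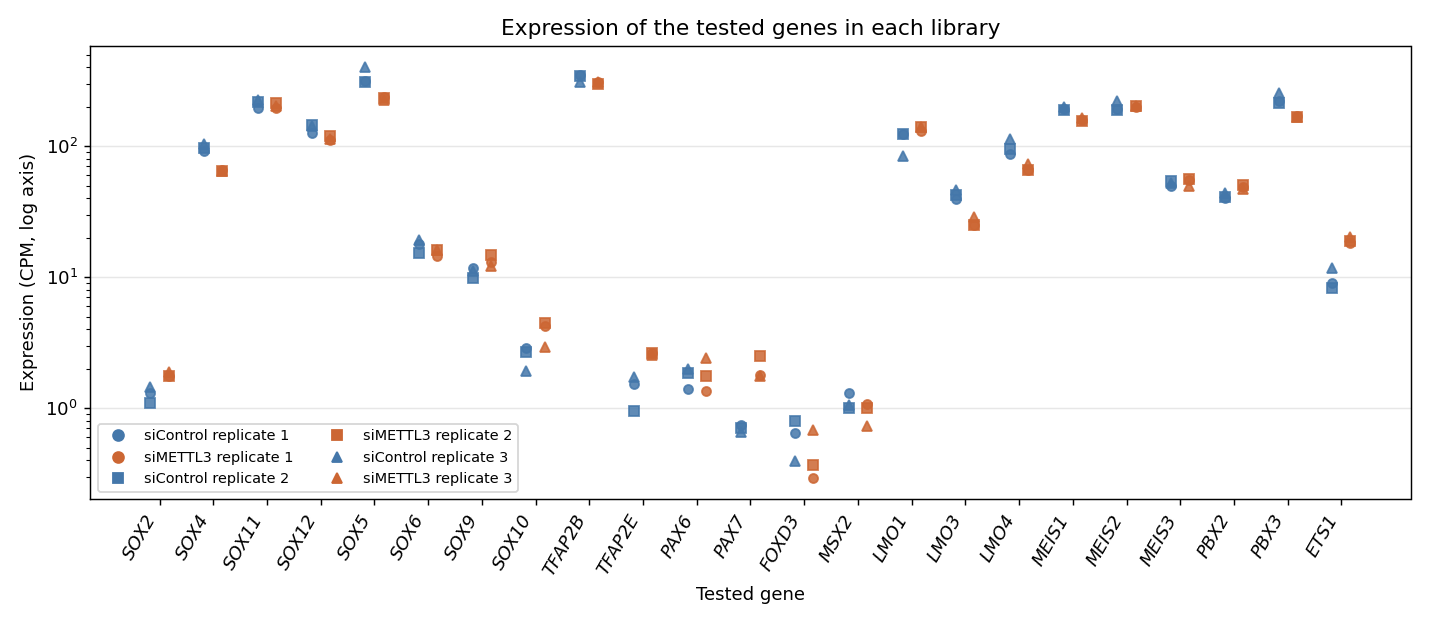
Expression of the 23 tested genes in each library, in CPM on a log axis. Blue marks are siControl and orange marks siMETTL3, with one symbol shape per replicate number. For SOX4, SOX5, SOX12, LMO3, LMO4, MEIS1 and PBX3 the orange marks lie below all blue ones. They lie above for SOX2, SOX9, SOX10, TFAP2E, PAX7, LMO1, PBX2 and ETS1, of which SOX2, SOX9, SOX10 and LMO1 were not called.

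Promoter sequences are shown for the paralogues that were called in opposite directions, PBX2 (higher) and PBX3 (lower), and for PAX7, the gene with the largest called change. Each runs 5′ to 3′ on the gene's strand from 250 bases before to 50 after the RefSeq start (GRCh38.p14). They are chr6:32190153-32190452 (minus) for PBX2, chr9:125747933-125748232 (plus) for PBX3 and chr1:18630596-18630895 (plus) for PAX7. Capitals mark the MEIS hexamer TGACAG, the CCAAT box and the GC box GGGCGG on either strand.
PBX2: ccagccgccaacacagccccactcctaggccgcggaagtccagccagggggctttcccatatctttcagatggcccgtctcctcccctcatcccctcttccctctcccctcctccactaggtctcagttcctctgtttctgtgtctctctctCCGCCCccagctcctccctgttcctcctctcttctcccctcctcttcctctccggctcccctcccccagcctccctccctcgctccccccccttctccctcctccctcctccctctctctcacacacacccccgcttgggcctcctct
PBX3: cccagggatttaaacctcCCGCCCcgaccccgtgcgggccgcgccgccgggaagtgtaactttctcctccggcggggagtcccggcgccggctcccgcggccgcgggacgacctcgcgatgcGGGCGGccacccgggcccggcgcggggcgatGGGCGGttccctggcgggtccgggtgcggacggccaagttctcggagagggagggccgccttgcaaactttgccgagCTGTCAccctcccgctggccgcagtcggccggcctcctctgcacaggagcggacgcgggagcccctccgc
PAX7: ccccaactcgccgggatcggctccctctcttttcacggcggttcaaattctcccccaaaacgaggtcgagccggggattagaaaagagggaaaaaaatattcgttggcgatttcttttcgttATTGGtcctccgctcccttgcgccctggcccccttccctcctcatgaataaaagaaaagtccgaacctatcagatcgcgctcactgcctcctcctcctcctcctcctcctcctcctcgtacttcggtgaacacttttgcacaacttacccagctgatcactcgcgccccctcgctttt

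The PBX paralogues differ in these windows. That of PBX3 holds 43 CpG dinucleotides, 3 GC boxes and 1 MEIS hexamer, and that of PBX2 holds 8 CpG dinucleotides and 1 GC box. The PAX7 window holds 21 CpG dinucleotides and 1 CCAAT box. RefSeq windows were matched for 24 of the 31 genes. These had a median of 21 CpG dinucleotides, against 14 over 27305 windows of the same length. The GC box was in 15 of the 24 (44.6% of all windows), CCAAT in 11 (35.7% of all), and the MEIS hexamer in 3, SOX2, FOXD1 and PBX3 (15.9% of all). The SOX motif ACAAAG was in 4 (16.0% of all), the composite PBX-HOX motif TGATNNAT in 5 (7.60% of all), and the AP-2 motif GCCNNNGGC in 4 (23.0% of all), all searched on both strands. A match describes letters in the window and not binding.

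Among the HOX cofactors, PBX3 and MEIS1 fell, PBX2 rose, and MEIS2 and MEIS3 did not pass. PBX3 (chromosome 9, 125747345 to 125967377, plus strand) measured 223, 215 and 254 CPM in siControl and 169, 167 and 167 CPM in siMETTL3. All siMETTL3 libraries lay below all siControl libraries. PBX3 fell, with a log2 fold change of -0.46 and an SE of 0.065 (edgeR FDR 0.000109). PBX2 (chromosome 6, 32184733 to 32190202, minus strand) measured 40.3, 41.2 and 43.6 CPM in siControl and 48.6, 50.4 and 46.6 CPM in siMETTL3, again with no overlap. PBX2 rose by a small amount (log2 fold change 0.22, SE 0.069, edgeR FDR 0.0217). A non-coding gene of GENCODE 44 covers 21.0% of the PBX2 span, and its reads cannot be told apart from those of PBX2. The call of PBX2 was lost without siControl replicate 2 (FDR 0.0764), siMETTL3 replicate 1 (FDR 0.0737) or siMETTL3 replicate 2 (FDR 0.0999), and the log2 fold change was 0.37 with the intron length offset (edgeR FDR 0.000489).

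MEIS1 (chromosome 2, 66433452 to 66573869, plus strand) measured 192, 189 and 198 CPM in siControl and 158, 155 and 164 CPM in siMETTL3. The groups did not overlap, and MEIS1 fell (log2 fold change -0.28, SE 0.054, edgeR FDR 0.00114). MEIS2, at a similar CPM, gave 192, 189 and 222 CPM in siControl and 198, 202 and 204 CPM in siMETTL3. Its log2 fold change was 0.0025, with a 95% interval from -0.13 to 0.13 (edgeR FDR 0.981). MEIS3 measured 49.7 to 53.9 CPM in siControl and 49.9 to 56.4 CPM in siMETTL3 (log2 fold change 0.047, interval -0.091 to 0.18, edgeR FDR 0.642). The groups overlapped for MEIS2 and MEIS3, and the differences between paralogues were not tested.

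The SOXC genes, which act in neuronal precursors, were among the most abundant. SOX4 (chromosome 6, 21593751 to 21598619, plus strand) measured 91.7, 96.5 and 103 CPM in siControl and 66.2, 64.9 and 65.1 CPM in siMETTL3. It fell, with a log2 fold change of -0.57 (SE 0.062, edgeR FDR 1.22e-05). SOX12 (chromosome 20, 325595 to 330224, plus strand) measured 127, 144 and 143 CPM in siControl and 111, 119 and 113 CPM in siMETTL3. It fell less (log2 fold change -0.27, SE 0.063, edgeR FDR 0.00447). SOX11, the one with the highest CPM, measured 195 to 224 CPM in siControl and 197 to 211 CPM in siMETTL3, with overlapping groups (log2 fold change -0.061, interval -0.18 to 0.062, edgeR FDR 0.481).

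Non-coding genes of GENCODE 44 cover 100% of the SOX12 span, 37.9% of that of SOX4 and 57.4% of that of SOX11, and without strand their reads cannot be told apart. All 3 SOXC genes lack introns, so their whole counted span is exon, while the counts of most genes include intronic reads. Of the 339 tested genes, among those matched in GENCODE 44, whose span was at least 99% exon, 30.7% were called lower and 4.42% higher, and their median log2 fold change was -0.20. An offset that removes the trend with intron length within each library was chosen with the data in view and fitted on the 14593 tested genes matched in GENCODE 44, over which its FDR is adjusted. With it, SOX4 remained lower (log2 fold change -0.32, edgeR FDR 0.000600), SOX12 was no longer called (-0.013, edgeR FDR 0.874), and SOX11 turned to higher (0.19, edgeR FDR 0.00716). SOX2, an intronless stem cell factor of the SOXB group that lies within the SOX2-OT RNA gene, measured 1.10 to 1.46 CPM in siControl and 1.75 to 1.90 CPM in siMETTL3. It did not pass (log2 fold change 0.49, edgeR FDR 0.183). Its log2 fold change was 0.74 with the offset (edgeR FDR 0.0510).

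**Figure D2:**
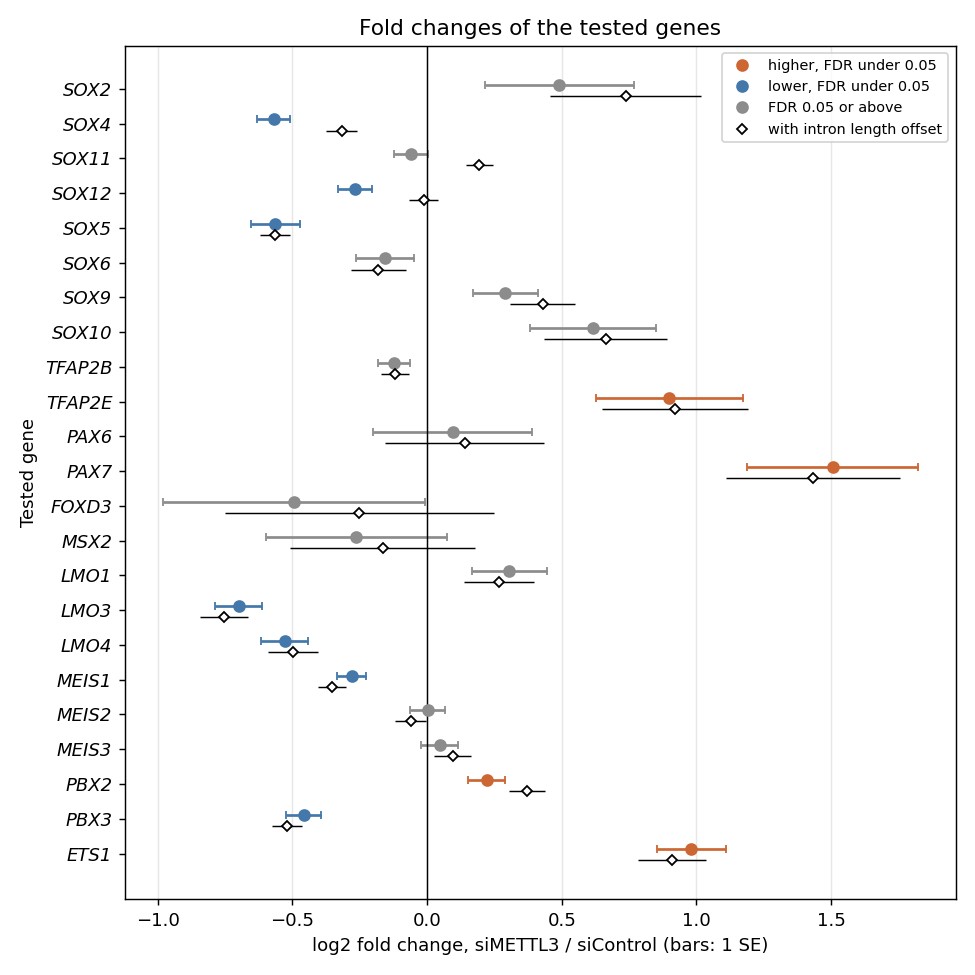
Log2 fold change of siMETTL3 over siControl for the 23 tested genes, with bars of 1 SE. Filled circles are the edgeR fit (blue lower, orange higher, grey not called), and open diamonds the fit with an intron length offset, under which the intronless SOX4, SOX11 and SOX12 moved upward while PBX3, LMO3, SOX5 and ETS1 stayed near their first values.

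The SOXD genes encode SOX proteins without a transactivation domain that act with SOXE proteins. SOX5 (chromosome 12, 23529504 to 24562544, minus strand) measured 312, 309 and 405 CPM in siControl and 236, 232 and 226 CPM in siMETTL3. It fell (log2 fold change -0.56, SE 0.092, edgeR FDR 0.000566), and siControl replicate 3 was the highest library. Without that library the log2 fold change was -0.43 (edgeR FDR 2.48e-08). SOX6, its closest paralogue, measured 15.4 to 19.2 CPM in siControl and 14.6 to 16.2 CPM in siMETTL3 and did not pass (log2 fold change -0.16, edgeR FDR 0.284). C11orf58 covers 16.4% of the SOX6 span.

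SOX5 spans 1033 kb, of which 1.09% is exon. Of the 23 tested genes, 7 span over 100 kb: SOX5, PBX3 and MEIS1 were lower, PAX7 and ETS1 were higher, and SOX6 and MEIS2 did not pass. Among all 3397 tested genes over 100 kb, 28.3% were called higher and 15.7% lower, and the median of their log2 fold changes was 0.060.

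The SOXE genes, regulators of glial and pigment fates, were low and did not pass. SOX9 measured 11.7, 9.91 and 11.1 CPM in siControl and 13.1, 14.7 and 12.2 CPM in siMETTL3. The siMETTL3 libraries all lay above the siControl libraries (log2 fold change 0.29, SE 0.12, edgeR FDR 0.0709). SOX9 passed without siControl replicate 1 (log2 fold change 0.35, edgeR FDR 0.0478) and with the intron length offset (0.43, edgeR FDR 0.0108). SOX10 had 62, 54 and 29 raw counts in siControl and 87, 98 and 60 in siMETTL3 (log2 fold change 0.62, SE 0.23, edgeR FDR 0.0516). Over the alternatives its FDR went from 0.0287 to 0.201. It was past the threshold without siControl replicate 1 (0.0370) or siMETTL3 replicate 3 (0.0297), and, with all 6 libraries, under upper quartile scaling (0.0457), total count scaling (0.0492), a minimum of 10 counts per library (0.0483) and the intron length offset (0.0326). SOX9-AS1 and another antisense gene cover the whole SOX9 span. SOX8 had 4 counts in siControl replicate 3, 2 in siMETTL3 replicate 2 and 0 in the other libraries.

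SOX10 lies wholly inside the counted span of POLR2F, an RNA polymerase subunit gene, so each of its reads was counted for both. SOX10 counts were 3.26% to 4.52% of the POLR2F counts in siControl and 4.84% to 6.99% in siMETTL3, and POLR2F itself did not pass (log2 fold change 0.011, edgeR FDR 0.910). How many SOX10 counts are POLR2F intron reads was not tested. Of 9 Schwann and glial markers in the tables, 5 were tested and 3 were called higher: MBP, GFAP and PMP22, with log2 fold changes of 0.64, 0.78 and 0.36. Their summed level was 18.1 to 20.2 CPM in siControl and 23.0 to 28.3 CPM in siMETTL3, and FABP7 was at 0 counts throughout. Of 8 melanocyte markers, 5 were tested, none was called higher and 3 were called lower: PMEL, SLC45A2 and MITF, with log2 fold changes of -0.48, -0.60 and -0.55. Their sum was 90.0 to 99.9 CPM in siControl and 62.3 to 70.3 CPM in siMETTL3. Over all tested genes 18.6% were called higher and 19.2% lower, and 5 tested genes per list are few. All libraries came from the Kelly line. Whether cells with glial or pigment markers contribute to the SOXE values was not tested.

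Of the AP-2 genes, which pattern the neural plate border and crest, 1 dominated. TFAP2B measured 346, 342 and 309 CPM in siControl and 309, 298 and 308 CPM in siMETTL3 (log2 fold change -0.12, SE 0.059, edgeR FDR 0.118). siControl replicate 3 lay among the siMETTL3 libraries, and without it the log2 fold change was -0.17 (edgeR FDR 0.00408). TFAP2E (chromosome 1, 35573314 to 35595328, plus strand) had 33, 19 and 26 raw counts in siControl and 54, 57 and 52 in siMETTL3. It rose from 1.40 ± 0.403 to 2.59 ± 0.0515 CPM (SD, n = 3; log2 fold change 0.90, SE 0.27, edgeR FDR 0.0186). The antisense gene TFAP2E-AS1 covers 20.3% of its span, and reads of the strands cannot be told apart. The call was lost without siControl replicate 2 (log2 fold change 0.68, FDR 0.0816), siMETTL3 replicate 1 (FDR 0.0539) or siMETTL3 replicate 2 (FDR 0.0555). TFAP2A had 2 to 8 counts in siControl and 4 in each siMETTL3 library. TFAP2C had 0 counts in all 6 libraries, where 3 counts correspond to 0.138 to 0.199 CPM.

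PAX7 (chromosome 1, 18630846 to 18748866, plus strand), a paired-box factor of the neural plate border and of muscle stem cells, had the largest called change and the only one of at least 2-fold. Its raw counts were 16, 14 and 10 in siControl and 37, 54 and 36 in siMETTL3. Each siMETTL3 library was above each siControl library, although all levels were low, at 0.702 ± 0.0391 and 2.01 ± 0.408 CPM (SD, n = 3). On the log2 scale the fold change was 1.51 ± 0.32 (SE, edgeR FDR 0.00208), and it ranged from 1.32 to 1.59 over the fits without 1 library. PAX3, which shares its early roles, had 2 to 5 counts in every library and was not tested. PAX6, an eye and forebrain regulator, measured 1.39 to 1.99 CPM in siControl and 1.36 to 2.43 CPM in siMETTL3 (log2 fold change 0.095, edgeR FDR 0.832). Other genes of the tables, ELP4 among them, cover 33.5% of the PAX6 span.

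The FOXD and MSX genes, early crest specifiers, were near the limit of detection. FOXD3 had 14, 16 and 6 counts in siControl and 6, 8 and 14 in siMETTL3, and MSX2 had 16 to 28 and 15 to 22. FOXD3-AS1 covers 73.2% of the FOXD3 span. Neither gene passed (edgeR FDR 0.460 and 0.578). MSX1, with 6 to 14 counts in siControl and 3 to 12 in siMETTL3, was not tested, nor was FOXD1, with 0 to 4 and 4 to 10. FOXD2 had 0, 4 and 0 counts in siControl and 10, 12 and 6 in siMETTL3. The groups did not overlap, and without the filter its FDR was 0.0509 in edgeR. Most low counts in the tables are even: 75.9% of the values from 1 to 20. A count of 4 may therefore come from a pair of sequenced fragments.

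ETS1 (chromosome 11, 128458761 to 128587558, minus strand), an ETS-domain factor of migrating crest, measured 9.09, 8.31 and 11.8 CPM in siControl and 18.1, 18.8 and 20.3 CPM in siMETTL3. It rose, with a log2 fold change of 0.98 (SE 0.13, edgeR FDR 5.72e-05) and no overlap between the groups. Over the fits without 1 library it stayed between 0.88 and 1.13.

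Of the 4 LMO genes, 2 fell, 1 did not pass and 1 was not tested. LMO4 (chromosome 1, 87328880 to 87348923, plus strand) measured 86.4, 95.6 and 112 CPM in siControl and 65.6, 65.7 and 72.4 CPM in siMETTL3, without overlap. It fell (log2 fold change -0.53, SE 0.087, edgeR FDR 0.000475). LMO1 measured 125, 123 and 83.9 CPM in siControl and 131, 140.1 and 139 CPM in siMETTL3. Its groups did not overlap, but it did not pass (log2 fold change 0.31, SE 0.14, edgeR FDR 0.126). siControl replicate 3 stood apart, and without it the log2 fold change was 0.15 (edgeR FDR 0.0340). DESeq2 and limma-voom, on all 6 libraries, called LMO1 higher (adjusted p 0.0202 and 0.0425). LMO2, a blood stem cell factor, had 7 to 9 counts in siControl and 9 to 14 in siMETTL3 and was not tested.

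LMO3 (chromosome 12, 16548372 to 16610594, minus strand) measured 39.6, 42.3 and 46.5 CPM in siControl and 25.1, 25.2 and 28.6 CPM in siMETTL3. Its groups did not overlap, and it fell (log2 fold change -0.70, SE 0.087, edgeR FDR 3.53e-05). MGST1, a glutathione transferase gene, covers 97.9% of the LMO3 span, and reads in the overlap were counted for both genes. LMO3 counts were 56.0% to 57.5% of the MGST1 counts in siControl and 41.6% to 44.1% in siMETTL3. The MGST1 counts left after subtracting those of LMO3 were 29.3, 31.5 and 36.6 CPM in siControl and 35.2, 33.1 and 36.3 CPM in siMETTL3, so these values overlapped between the groups. MGST1 as a whole was lower (log2 fold change -0.30, edgeR FDR 0.00697). How the shared reads divide between the genes was not tested.

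**Figure D3:**
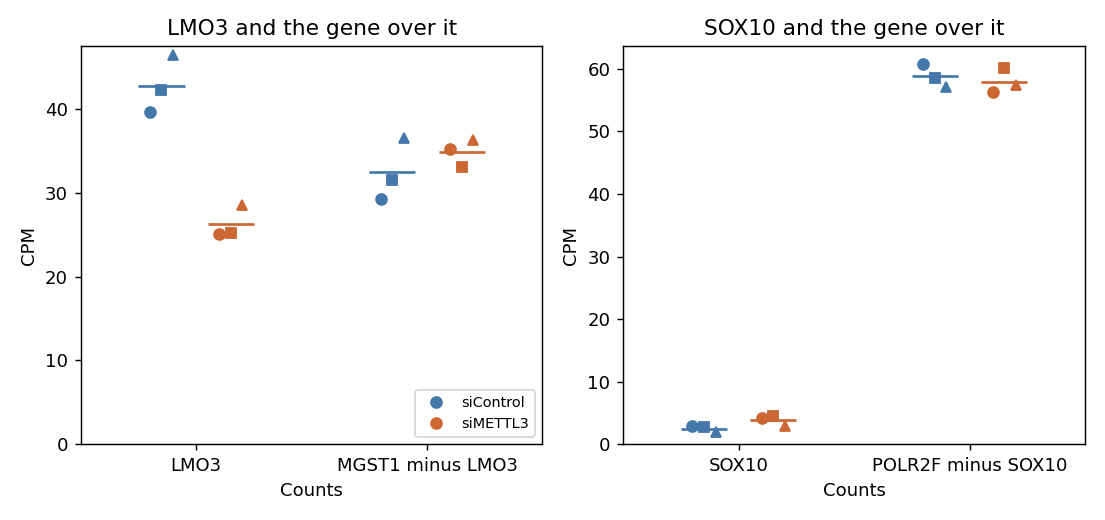
CPM values of LMO3 and of MGST1 after subtraction of LMO3 (left), and of SOX10 and of POLR2F after subtraction of SOX10 (right). Points are libraries (circle, square and triangle for replicates 1, 2 and 3), lines are group means, blue is siControl and orange siMETTL3; the LMO3 points separate by group, and the remaining MGST1 and POLR2F counts overlap.

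Levels between genes were compared per kb of exon. In siControl the order began with LMO1 (64.8 CPM per exon kb), TFAP2B (54.0), PBX3 (47.0), SOX5 (30.3), SOX12 (29.7) and SOX11 (23.6). Neighbours such as SOX5 and SOX12 overlapped between libraries. Intronic reads are in these counts, and the order depends on the length used. Per kb of counted span, SOX12 (29.7), SOX11 (23.6) and SOX4 (20.0) led, TFAP2B followed at 11.5, and LMO1, PBX3 and SOX5 were at 2.49, 1.05 and 0.331. SOX4, SOX11 and SOX12 lack introns, so their values are the same on both scales and the second scale is no separate support for their level. SOX4 ranked 7 per kb of exon. TFAP2B ranked 2 per kb of exon and 4 per kb of span. The lowest genes with any counts, SOX8, PAX3, FOXD2 and TFAP2A, lay between 0.0198 and 0.0285 CPM per exon kb in siControl.

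**Figure D4:**
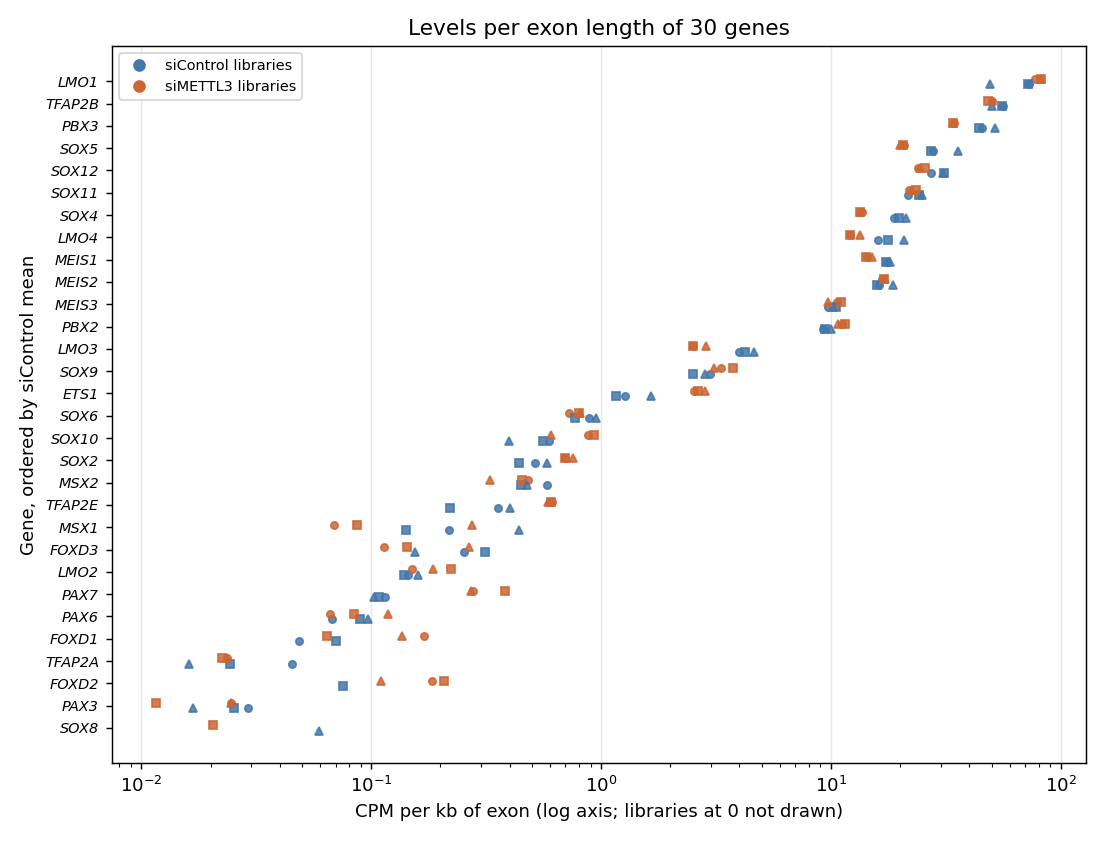
Level of the 30 genes with counts in siControl, in CPM per kb of exon on a log axis, ordered by the siControl mean. Blue marks are siControl and orange marks siMETTL3 libraries; the 12 genes from LMO1 to PBX2 form an upper group, and PAX7, FOXD1 and FOXD2 are low in both groups.

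The pentamer GGACT, a frequent core of METTL3 target sites, was counted in the GENCODE 44 canonical transcript of each gene. Its median density was 1.23 per kb in the 4 genes called higher, 1.00 in the 7 called lower and 0.888 in the 12 not called. Over the 14593 tested genes with such a transcript it was 0.929, with 0.992 in the 2744 of them called higher and 0.862 in the 2815 called lower. Single genes varied more: ETS1 (higher) and SOX12 (lower) each held 12 copies, at 2.34 and 2.57 per kb, and PBX3 (lower) held 0. A match is not a methylated site.

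Other genes of these pathways were read from further lists, beside a background of 18.6% of all tested genes called higher and 19.2% lower. Of 25 other neural crest regulators, 17 were tested, 1 was called higher and 5 lower, and the median log2 fold change was -0.19. HEY1, a Notch effector, rose (0.78, edgeR FDR 0.000122), while MYB (-1.07, edgeR FDR 7.66e-06), EBF1 (-0.52) and NR2F1 (-0.68) fell. Of 20 other TALE factors and LIM partners, 16 were tested, 7 were called higher and 5 lower (median 0.016). The LIM homeobox gene LHX6 rose (0.93) and LHX9 fell (-0.71). The MEIS-related PKNOX2 rose (0.76), and TGIF1, a TALE repressor, fell (-0.53). Of 24 neural crest signals and receptors, 18 were tested, 5 were called higher and 2 lower (median 0.15). EDN3, an endothelin ligand of crest cells, rose (1.65, edgeR FDR 2.72e-05), as did NGFR (1.18) and GFRA1 (0.32), and the endothelin receptor EDNRA fell (-0.76). Of 10 fibroblast and mesenchyme markers, 7 were tested and 3 were called higher, VIM, PRRX1 and COL1A1, with log2 fold changes of 0.84, 0.90 and 0.86. None was called lower, and the median over the 7 was 0.18. COL3A1 was measured at 2.52 and 1.62 CPM in siControl and siMETTL3 (log2 fold change -0.64, edgeR FDR 0.0629), with no overlap between the groups, and PDGFRB and THY1 had log2 fold changes of -0.035 and -0.088. The summed level of the list was 149 to 168 CPM in siControl and 172 to 184 CPM in siMETTL3, of which VIM alone made up 27.3 and 48.8 CPM on average.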

How the data were processed

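The deposited values are raw counts per gene, made by the authors with featureCounts 1.5.3 on GENCODE 33 protein-coding genes, per the file headers. Whole gene spans were counted, introns included. Reads over several genes were counted for each, and neither strand nor read pairs as fragments were set. The submitters' processing notes name Trimmomatic 0.36, HISAT2 2.1.0 and GRCh38.

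Groups and replicate numbers came from the sample titles. Genes were filtered with filterByExpr (minimum count 10), scaled by TMM, and tested with edgeR 4.0.16 in R 4.3.3 (quasi-likelihood F-test, robust, 6 libraries, no covariate). FDR is the Benjamini-Hochberg value over all 15311 tested genes, with a threshold of 0.05. SE is the absolute log2 fold change over the square root of F. The 95% intervals use this SE with a normal quantile, so they are somewhat narrower than the F-test implies. The script was tested on simulated data. CPM was computed here from counts and TMM-scaled library sizes. Exon lengths and overlapping non-coding genes came from GENCODE 44, promoters from RefSeq. Precision is limited by 3 libraries a group and by low counts.

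The genes and lists were chosen with earlier results of these data known. Every gene of the set is named. Some genes of the further lists are not reported here. From each further list up to 4 called genes with the smallest FDR are named. Alternatives were other scalings, filters, DESeq2 1.42.0, limma-voom (limma 3.58.1), no robust option and a replicate block. Further ones were non-overlapping genes, each library left out, and an added intron length offset. Overlap was judged among the counted protein-coding genes only.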

Additional observations from a re-analysis of the deposited data

How the results depend on the processing

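The intron length offset was chosen after seeing the data. Across the fits that left out a library, the number of genes called higher in the set went from 2 to 6 (main 4), the number called lower from 7 to 8 (main 7), METTL3 from -0.74 to -0.69, and all genes called from 4210 (without siMETTL3 replicate 1) to 6394 (main 5786). With the intron length offset 7 genes of the set were higher and 6 lower. On the 9517 tested genes that overlap no other protein-coding gene of the tables, 3749 were called. This smaller set leaves out LMO3, SOX6, SOX10, PAX6 and METTL3, so it gave no value for them. Overlap with non-coding genes was not considered. Genes that these cover in whole or large part, such as SOX2, SOX9, SOX12 and FOXD3, stayed in the set. The sign changed for 3 genes that the fit had not called. MEIS2 was -0.0045 without the filter, -0.015 among non-overlapping genes and -0.061 with the intron length offset, and it went from -0.040 to 0.079 over the fits that left out a library. PAX6 went from -0.15 to 0.27 over those fits. SOX11 was 0.19 with the intron length offset, the only alternative that called it. This offset also moved SOX2, SOX4, SOX12 and FOXD3, likewise intronless, upward. The cause of the trend with intron length and of the other changes of sign was not tested. SOX4, SOX5, LMO3, LMO4, MEIS1, PBX3, PAX7 and ETS1 kept their direction and their call in every alternative that gave them a value; their highest FDR was 0.0177, for PAX7. The main fit did not pair libraries by replicate number. Deviations of same-numbered libraries correlated at 0.052, 0.0595 and 0.103, and those of others at -0.0973 to 0.0479. All 6 libraries correlated best with their own number, a hint of pairing from the data only. With the replicate block 6166 genes were called, 5 genes of the set were higher and 7 lower, and SOX10 was called (0.63, edgeR FDR 0.0287). Depth limits FOXD1, FOXD2, FOXD3, MSX1, MSX2, PAX3, LMO2, SOX8 and TFAP2A, whose counts were 28 or fewer in each library.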
